A study of Mus musculus with 18 samples.

Results

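The kinesin family was examined in the messenger RNA of mouse round spermatids (RS), the haploid germ cells that have finished meiosis and not yet begun to elongate. Its members were all genes of the count table whose symbol is Kif or Kifc followed by a number, with 3 pseudogenes left out, which gave 44 of the 54232 genes. Of these, 42 encode a kinesin motor. The other 2 match the symbols and encode no motor: Kif16bos, an RNA transcribed from the strand opposite to that of its neighbour Kif16b, and Kif1bp, a protein that binds kinesins.

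RS were isolated by sedimentation in an albumin gradient from the testes of mice of 75 to 85 days of age. There were 3 genotypes with 6 libraries each: wild type (WT), knock-out of GRTH (KO) and knock-in of GRTH (KI). GRTH is the testis RNA helicase made from Ddx25. KO mice lack it, and KI mice carry a human GRTH gene with a missense mutation that changes arginine to histidine, so that the unphosphorylated protein is made and the phosphorylated one is absent. Neither genotype makes elongating spermatids. The labels do not say whether libraries came from separate animals, so p-values measure the spread between these libraries, which may be technical in part.

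Kinesins are motors that walk along microtubules or take them apart at their ends, driven by ATP. Some carry vesicles and protein complexes, some build cilia and flagella, and others move chromosomes and close the division between daughter cells. In spermatids, microtubules form the axoneme of the tail and the manchette, a skirt around the nucleus while it is reshaped. Kif17 has a further role there, since in male germ cells it moves Fhl5 (also called ACT), the coactivator of the transcription factor CREM, out of the nucleus.

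Total counts on genes lay between 18766971 and 26776555 per library, and members took between 0.319% and 0.490% of them. Levels are compared between genotypes as CPM, counts scaled to a common library size with TMM factors. Reads were aligned to the mouse genome, and how far RNA of the human gene in KI was counted as Ddx25 was not tested. Ddx25 had 538 to 607 CPM in WT, 47.7 to 90.9 in KO and 0.0456 to 0.519 in 5 of the KI libraries. The library labelled KI 4 had 56.9, within the KO range, and stood closer to KO 2 than any other pair of libraries did. It stayed in KI, and KI values without it are given where they change a call. In 6 pairs of libraries of 1 genotype the counts also stood close, although further apart than counting noise, and summing such libraries left 3 WT, 5 KO and 4 KI. Of the marker lists, all 7 genes of elongating spermatids were lower in KO and in KI (summed level 13901 to 19346 CPM in WT, 1626 to 4080 in KO, 2145 to 3342 in KI). Of the 8 genes of RS, 2 were lower in KO and 3 in KI and none was higher, and they summed to 853 to 1347 CPM in WT, 565 to 1216 for KO and 592 to 832 for KI, the last wholly below WT. The part of these shifts in the members' falls was not tested. Whether a lower level means fewer cells of a kind or less RNA per cell cannot be told apart in such samples.

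Within WT, the level of a member was compared with that of others per length, as TPM, which divides counts by exon length and scales each library to the same total. Kif2b and Kif9 led with means over 100 TPM, and 11 other members lay between 10 and 100, 19 between 1 and 10 and 12 under 1. Kif2b, a member of the group that shortens microtubules from their ends, had 179 TPM ± 110 (SD, n = 6), with 87.7 in the lowest library and 334 in the highest. Kif9, a motor of the axoneme, had 116 ± 5.88. Kif2b was above Kif9 in 3 of the 6 WT libraries, so their order did not hold beyond the spread between libraries. Kif9 was above Kif17 in all 6 libraries, and Kif17, at 67.8 ± 26.0, was above Kif27 in all 6.

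The next members in the order were Kif27 (51.9 TPM ± 25.9), Kif2a (47.5 ± 6.62), Kif2c (42.8 ± 15.6), Kif20a (35.0 ± 3.71) and Kif3a (32.1 ± 10.97). Neighbours among Kif27, Kif2a, Kif2c and Kif20a kept their order in 3 of 6 libraries each, and Kif20a was above Kif3a in 4. Neighbours in this order were thus not separated by level, and members further apart in it were not compared. Kif3a is a motor subunit of heterotrimeric kinesin-2, which builds cilia, and was above its partner subunit Kif3b in all 6. With the length of the longest annotated transcript in place of that of all exons together, 7 of these 8 members remained among the 8 highest, and Kif9 moved to 149 TPM and Kif2c to 62.1. At the other end, Kif12 had 1 count in WT 1, 1 in the library labelled KI 4 and 0 in the other 16 libraries. That is under the floor of 3 counts, so no fold was computed, and Kif28, with at most 16 counts in a library, was also not tested.

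**Figure D1:**
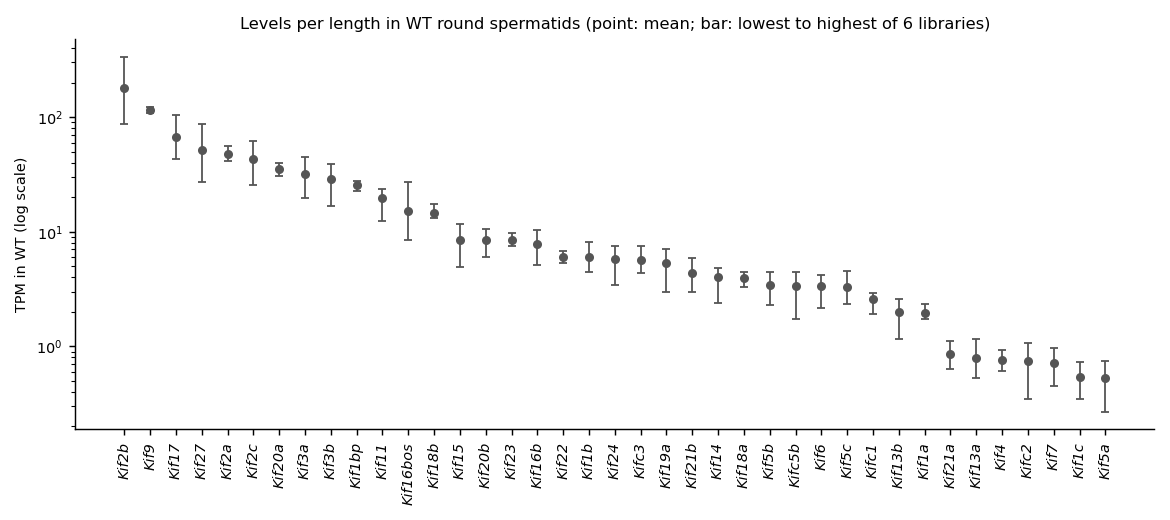
Level per length in WT of the 39 members over 0.1 TPM, on a log axis, in order of the mean. Points are means and bars run from the lowest to the highest of 6 libraries; Kif2b spans 87.7 to 334 TPM and Kif9 only 109 to 121.

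The comparison of KO with WT asks which members depend on GRTH as a whole, and that of KI with WT which depend on its phosphorylated form. In both, Kif1a had the largest fall and Kif17, Kif16bos, Kif2c, Kif5c and Kif1bp were also lower, while Kif13a, Kif4, Kif23, Kif1c, Kif20b and Kifc1 were among those higher. A change of any amount was tested by edgeR's quasi-likelihood test and called at a Benjamini-Hochberg adjusted p under 0.1 over 21058 genes, of which 42 were members. In KO, 10 members (23.8%) rose, beside 16.4% of all genes tested, and 6 (14.3%) fell, beside 13.5%. In KI, 9 members (21.4%) rose, beside 16.1% of all genes, and 6 (14.3%) fell, beside 15.4%. The shares that fell were close to the background. Those that rose were somewhat above it in this fit. The counts that rose dropped to 6 in KO and 5 in KI with close libraries summed, a fit for which no share of all genes was computed. Whether members rose more often than other genes was not tested. The median log2 fold change was 0.07 over the members and 0.03 over all genes in KO, and 0.14 and 0.05 in KI.

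The calls shared 8 members that rose and 6 that fell. Kif21a and Kif26a passed only in KO and Kif18b only in KI, with no difference between KO and KI shown for any of them. All 6 members that fell did so in both comparisons, 4 of them motors, so 4 of 40 motors tested fell in each. With close libraries summed, 6 members rose and 5 fell in KO, and 5 rose and 5 fell in KI. With no filter on low counts, 6 members rose in KO. The shares of all genes called in these fits were not computed, so these counts have no background beside them. With close libraries summed, Kif13b, Kif16b and Kif1bp were not called in either comparison, nor were Kif21a and Kifc1 in KO or Kif18b and Kif1c in KI. Without the library labelled KI 4, KI still had 9 members higher and 6 lower, with Kif3b in place of Kif1c.

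**Figure D2:**
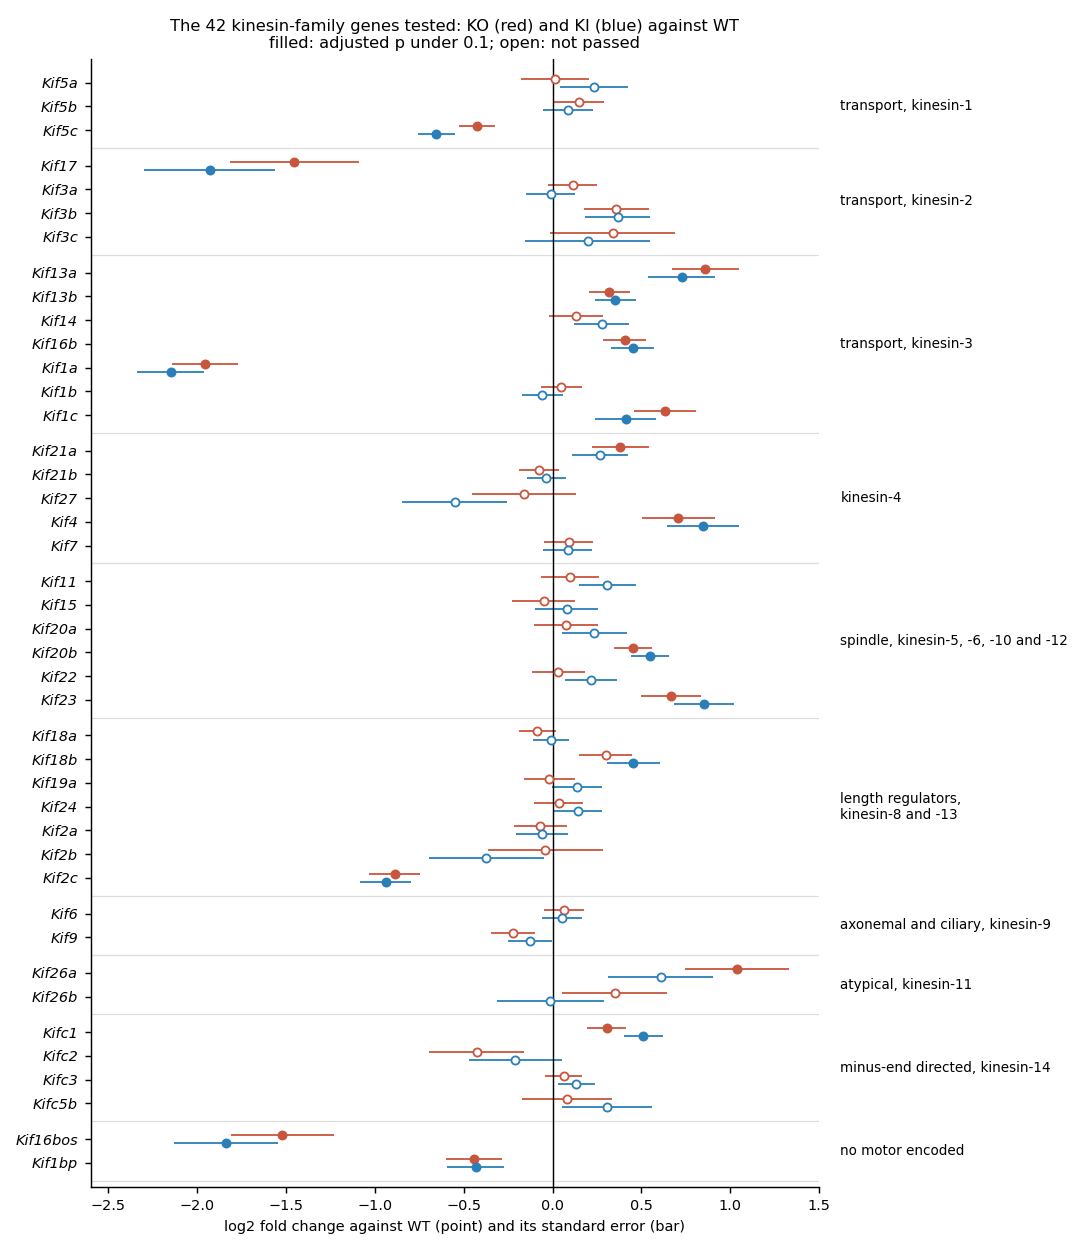
Log2 fold change against WT with its standard error for the 42 members tested, grouped by role, KO in red and KI in blue. Filled points passed an adjusted p under 0.1; Kif1a, Kif17 and Kif16bos lie furthest to the left, at -2.15 to -1.45, and KO and KI points of a member lie side by side.

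Changes past 1 log2 unit were tested with edgeR's glmTreat. Only Kif1a, 1 of the 42 members, passed, and it was lower in both comparisons. Over all genes, 0.598% were higher and 1.13% lower past this threshold in KO, and 0.522% were higher and 1.43% lower in KI. In KI, Kif17 passed as well without KO 1 (glmTreat adjusted p = 0.089), Kif16bos without WT 6 (glmTreat adjusted p = 0.075), and both without KO 3.

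Kif1a, at chr1:93015464-93101951, is a kinesin-3 that carries synaptic vesicle precursors in neurons. Its 6 WT libraries had 20.3, 22.8, 27.9, 25.8, 21.5 and 18.2 CPM. In KO it had 7.31, 5.11, 3.04, 6.22, 7.41 and 6.02 CPM, and in KI 5.96, 7.10, 4.34, 4.74, 4.21 and 4.37. Every KO and KI library was below every WT library. The fall was 3.89-fold in KO (log2 fold change -1.96, SE 0.19, glmTreat adjusted p = 0.0019) and 4.44-fold in KI (-2.15, SE 0.19, glmTreat adjusted p = 0.00021). In WT Kif1a stood at 1.96 TPM ± 0.232 (SD, n = 6), with 12 members lower.

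Kif17, at chr4:138250435-138301967, is the homodimeric kinesin-2. It had 446, 503, 364, 306, 337 and 271 CPM in the WT libraries. In KO it had 330, 60.0, 31.5, 140, 147 and 105, and in KI 117, 125, 68.7, 58.8, 99.4 and 116. All KI libraries and 5 of 6 KO libraries were below every WT library, and KO 1 lay inside the WT range. The WT mean was 372 CPM ± 87.8, the KO mean 136 ± 105 and the KI mean 97.5 ± 27.6 (SD, n = 6). This was a 2.74-fold fall in KO (log2 fold change -1.45, SE 0.36, edgeR adjusted p = 0.0053) and a 3.81-fold fall in KI (-1.93, SE 0.37, edgeR adjusted p = 0.00046). Neither passed the test for a change past 1 log2 unit, in which the adjusted p for KI was 0.32.

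Without KO 1 the log2 fold change of Kif17 in KO was -1.94 (SE 0.31, edgeR adjusted p = 9.9e-05), and with close libraries summed it was -1.48 (SE 0.49, edgeR adjusted p = 0.064). Without the library labelled KI 4 the value in KI was -1.82 (SE 0.39, edgeR adjusted p = 0.0016). Over all alternatives the adjusted p of Kif17 lay between 9.9e-05 and 0.064 in KO and between 3.5e-06 and 0.025 in KI. An exon of Kif17 shares 74 bases with Sh2d5 on the same strand, and reads there may belong to either gene. Sh2d5 had 0.212 to 0.947 CPM in WT, far below Kif17.

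Promoters of members were searched for the cAMP response element (CRE), TGACGTCA, the site that CREM binds. It is a palindrome that reads alike on both strands. In RefSeq's promoter table for GRCm38.p6, with 250 bases before and 50 after each start, 34 of the 44 members had a promoter. The CRE letters occurred in 1.79% of all 32851 promoters of this length. Among members they occurred in 3 of 38 promoters, those of Kif17, Kif5c and Kif18a. Kif17 and Kif5c were 2 of the 5 matched members that fell in both comparisons. Kif18a was 1 of the 19 that passed in neither or were not tested, and 0 of the 7 that rose in both had the letters. The promoters of Kif17 and Kif5c are shown with the CRE in capitals, beside that of the first start of Kif1a, which holds none. The Kif17 promoter is at chr4:138262001-138262300 on the plus strand, inside the annotated gene, and its CRE begins 86 bases before the start. The Kif5c promoter is at chr2:49619036-49619335 on the plus strand, with the CRE 26 bases before the start. The Kif1a promoter is at chr1:93101825-93102124 on the minus strand.
Kif17: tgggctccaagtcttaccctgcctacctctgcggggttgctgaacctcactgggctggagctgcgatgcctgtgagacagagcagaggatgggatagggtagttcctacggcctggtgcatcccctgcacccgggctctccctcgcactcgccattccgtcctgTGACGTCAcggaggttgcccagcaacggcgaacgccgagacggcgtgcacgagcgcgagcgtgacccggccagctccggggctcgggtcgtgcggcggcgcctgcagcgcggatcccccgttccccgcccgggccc
Kif5c: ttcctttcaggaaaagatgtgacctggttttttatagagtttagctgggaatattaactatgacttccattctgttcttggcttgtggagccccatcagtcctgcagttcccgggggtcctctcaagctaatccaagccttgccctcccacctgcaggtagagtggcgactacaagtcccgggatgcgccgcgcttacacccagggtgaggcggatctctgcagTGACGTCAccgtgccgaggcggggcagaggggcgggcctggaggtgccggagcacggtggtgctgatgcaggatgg
Kif1a: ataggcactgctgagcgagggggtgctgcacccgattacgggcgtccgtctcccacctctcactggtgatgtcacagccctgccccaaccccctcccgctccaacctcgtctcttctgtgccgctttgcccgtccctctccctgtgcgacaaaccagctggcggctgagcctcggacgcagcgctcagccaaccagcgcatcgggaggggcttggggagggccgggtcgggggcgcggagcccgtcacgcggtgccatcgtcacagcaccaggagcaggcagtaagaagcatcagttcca
A match is a description of these letters, and binding was not measured here. A part of CREM in the falls of Kif17 and Kif5c was not tested.

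Fhl5 and Crem, neither of them a kinesin, were also called lower in both comparisons. Crem had 307 to 453 CPM in WT (mean 376 ± 57.3, SD, n = 6), 204 to 272 in KO and 175 to 262 in KI, with no overlap between WT and either genotype. Its log2 fold change was -0.60 in KO (SE 0.13, edgeR adjusted p = 0.0019) and -0.73 in KI (SE 0.13, edgeR adjusted p = 0.00028). Fhl5 had 57.6 to 88.5 CPM in WT, 31.8 to 70.6 in KO and 37.3 to 56.3 in KI, so that KO overlapped WT and KI did not. It fell by 0.47 on the log2 scale in KO (SE 0.16, edgeR adjusted p = 0.039) and by 0.66 in KI (SE 0.16, edgeR adjusted p = 0.0043).

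The other kinesin-2 genes did not follow Kif17. Kif3a had a log2 fold change of 0.11 in KO and -0.01 in KI, Kif3b of 0.36 and 0.37, and the neuronal subunit Kif3c of 0.34 and 0.20, and none passed the test. Kif3c had only 5 to 47 counts in a library and an SE of 0.35 in each comparison, so its values are uncertain. Kif3b had an adjusted p of 0.17 in KO and 0.15 in KI by edgeR. Their accessory subunit Kifap3 did fall, from 434 CPM ± 54.5 in WT to 289 ± 93.9 for KO and 270 ± 53.1 for KI (SD, n = 6). Its log2 fold change was -0.59 in KO (SE 0.19, edgeR adjusted p = 0.031) and -0.69 in KI (SE 0.19, edgeR adjusted p = 0.011). Within heterotrimeric kinesin-2, the transcript of the accessory subunit was thus called lower in the main fit. Those of its motor subunits were not called there.

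**Figure D3:**
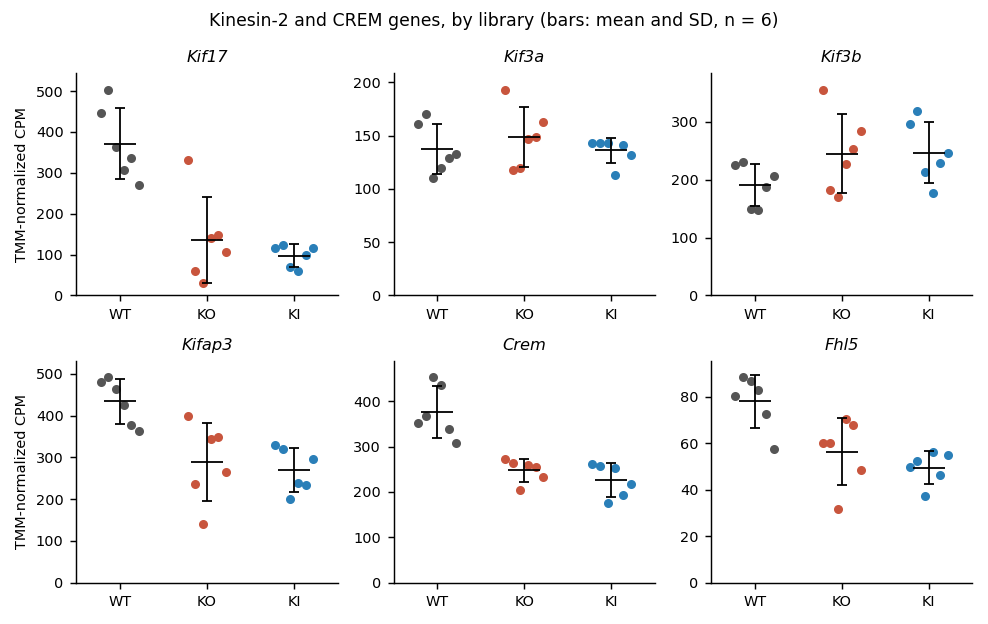
Levels in CPM of Kif17, of the heterotrimeric kinesin-2 genes Kif3a, Kif3b and Kifap3, and of Crem and Fhl5, with 6 libraries per genotype as points and the mean and SD as bars. Kif17 at 330 CPM in KO 1 is the single KO library that reaches the WT range of 271 to 503.

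Kinesin-1 carries many cargoes as a heavy chain dimer with light chains. Of its 3 heavy chains, Kif5c fell and Kif5a and Kif5b did not pass. Kif5c had 30.9, 34.2, 27.1, 26.0, 25.6 and 26.5 CPM in WT, 23.3, 19.6, 18.9, 22.8, 22.4 and 19.96 in KO and 17.3, 15.8, 18.03, 18.5, 20.01 and 18.6 in KI. Both genotypes lay wholly below WT. The log2 fold change was -0.43 in KO (SE 0.10, edgeR adjusted p = 0.0041) and -0.65 in KI (SE 0.10, edgeR adjusted p = 5.9e-05). Kif5b had 0.15 and 0.09 and Kif5a 0.01 and 0.23 as log2 fold changes in KO and KI. Among the 4 light chains, Klc3, the one known from the sperm tail, fell by 0.68 on the log2 scale in KO (SE 0.17, edgeR adjusted p = 0.0058) and by 0.73 in KI (SE 0.17, edgeR adjusted p = 0.0029). Klc1 fell by 0.33 in KO (edgeR adjusted p = 0.061) and by 0.46 in KI (edgeR adjusted p = 0.0090), Klc2 rose in KI by 0.32 (edgeR adjusted p = 0.058), and Klc4 passed in neither.

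In kinesin-3, the group of Kif1a, 4 of the 7 members tested rose and 1 fell in both comparisons, beside 16.4% higher over all genes in KO and 16.1% in KI. Kif13a, which carries endosomes, had 8.23, 9.88, 9.08, 6.64, 5.40 and 7.63 CPM in WT. In KO it had 21.4, 15.6, 8.45, 12.7, 13.9 and 13.2, and in KI 16.7, 13.9, 10.5, 12.1, 10.3 and 14.1. All KI libraries and all KO libraries but KO 3 were above WT, and the log2 fold change was 0.86 in KO (SE 0.19, edgeR adjusted p = 0.0017) and 0.73 in KI (SE 0.19, edgeR adjusted p = 0.0060). Kif1c, which moves vesicles between the Golgi apparatus and other membranes, had 5.35, 5.38, 5.52, 3.93, 3.32 and 5.15 CPM in WT and 6.54, 8.91, 6.27, 7.43, 8.73 and 6.54 in KO, all above WT. In KI it had 7.37, 7.54, 4.84, 8.001, 4.35 and 5.998, of which 4 libraries were above WT. Its log2 fold change was 0.63 in KO (SE 0.17, edgeR adjusted p = 0.0099) and 0.41 in KI (SE 0.17, edgeR adjusted p = 0.089), and the KI call was lost without the library labelled KI 4 (0.34, edgeR adjusted p = 0.19).

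Kif13b and Kif16b, the latter a motor of early endosomes, rose by less, with log2 fold changes of 0.32 and 0.41 in KO and 0.35 and 0.45 in KI. With close libraries summed neither was called, with edgeR adjusted p of 0.23 and 0.15 in KO and 0.21 and 0.16 in KI, nor was Kif1c in KI (edgeR adjusted p = 0.19). Kif1b and Kif14 did not pass. Among the adaptors that join kinesins to cargo, Trak1, which holds mitochondria, rose by 0.61 on the log2 scale in KO (SE 0.12, edgeR adjusted p = 0.00057) and by 0.77 in KI (SE 0.12, edgeR adjusted p = 4.3e-05), with all KO and KI libraries above WT, and Trak2, Mapk8ip1 and Mapk8ip3 passed in neither.

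The neighbours Kif16b and Kif16bos moved in opposite directions. Kif16bos lies on chromosome 2 at chr2:142902965-142903572 on the plus strand, just beyond the start of Kif16b on the minus strand, and reads of the strands were counted apart. It had 13.5, 10.6, 10.1, 6.88, 8.004 and 4.74 CPM in WT. In KO it had 4.58, 2.53, 0.760, 4.49, 3.52 and 2.86, and in KI 2.69, 2.71, 1.73, 2.41, 2.62 and 2.86. No KO or KI library reached the lowest WT library, although KO 1 at 4.58 came near WT 6 at 4.74. The log2 fold change was -1.52 in KO (SE 0.29, edgeR adjusted p = 0.00050) and -1.84 in KI (SE 0.29, edgeR adjusted p = 6.9e-05).

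Among the genes of microtubule length, kinesin-8 and kinesin-13, Kif2c fell in both comparisons and Kif18b rose in KI, while the other 5 of the 7 tested passed in neither. Kif2c, also called MCAK, takes microtubules apart at centromeres and had 273, 278, 196, 174, 229 and 184 CPM in WT. In KO it had 138, 99.8, 83.6, 135, 137 and 128, and in KI 115, 117, 114, 101, 123 and 125, all below WT. The log2 fold change was -0.89 in KO (SE 0.15, edgeR adjusted p = 0.00010) and -0.94 in KI (SE 0.15, edgeR adjusted p = 4.7e-05). Its relatives Kif2a and Kif2b had -0.07 and -0.04 in KO and -0.06 and -0.37 in KI. Kif18b, which acts on microtubule ends in mitosis, had a log2 fold change of 0.46 in KI (SE 0.15, edgeR adjusted p = 0.029, and 0.17 with close libraries summed) and 0.30 in KO (edgeR adjusted p = 0.16).

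**Figure D4:**
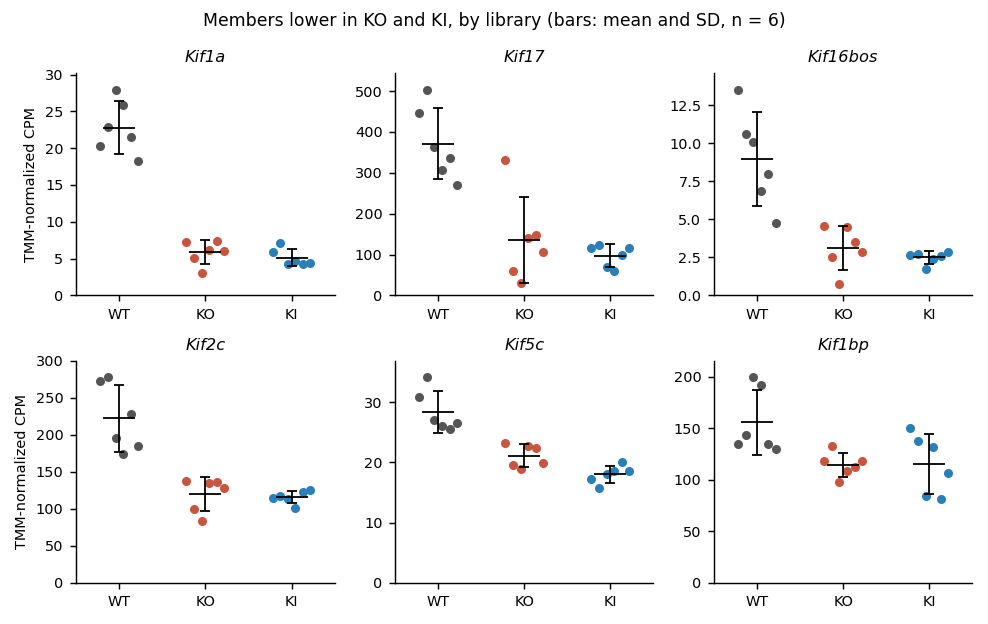
Levels in CPM of the 6 members that fell in both comparisons, with 6 libraries per genotype as points and the mean and SD as bars. Kif1a, Kif16bos, Kif2c and Kif5c show no overlap of KO or KI with WT, whereas Kif1bp overlaps in both.

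Kif1bp, the binding partner of Kif1 kinesins, fell by little. It had 135, 143, 200, 192, 135 and 130 CPM in WT, 118, 133, 98.2, 108, 112 and 118 in KO and 150, 138, 83.9, 132, 81.0 and 107 in KI. KO overlapped WT in 1 library and KI in 3. Its log2 fold change was -0.44 in KO (SE 0.16, edgeR adjusted p = 0.048) and -0.43 in KI (SE 0.16, edgeR adjusted p = 0.050), and with close libraries summed the adjusted p was 0.17 and 0.24.

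Of the spindle and cytokinesis group, Kif20b and Kif23 rose in both comparisons and the other 4 tested, Kif11, Kif15, Kif20a and Kif22, passed in neither. Kif23 is the motor of the central spindle, needed for the bridge between daughter cells. It had 65.4, 62.0, 105, 108, 76.7 and 86.8 CPM in WT, 119, 140, 124, 120, 126 and 170 in KO and 207, 193, 120, 135, 122 and 132 in KI, with both genotypes wholly above WT. Its log2 fold change was 0.67 in KO (SE 0.17, edgeR adjusted p = 0.0053) and 0.85 in KI (SE 0.17, edgeR adjusted p = 0.00061). Kif20b, also of the midbody, had 72.5, 63.7, 65.7, 67.0, 77.3 and 83.2 CPM in WT, 91.2, 85.7, 100.1, 99.3, 97.5 and 114 in KO and 109, 101, 115, 90.4, 113 and 99.2 in KI. These did not overlap either, and the log2 fold change was 0.45 in KO (SE 0.11, edgeR adjusted p = 0.0029) and 0.55 in KI (SE 0.11, edgeR adjusted p = 0.00047).

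In kinesin-4, Kif4, a motor of chromosome arms and the central spindle, rose in both comparisons, and Kif21a, which restrains microtubule growth, rose in KO by 0.38 on the log2 scale (SE 0.16, edgeR adjusted p = 0.087). The Kif21a call was lost in 14 of 25 alternatives, with an adjusted p of 0.13 by DESeq2, 0.23 with no filter on low counts and 0.32 with close libraries summed, and without any 1 of KO 1, KO 2, KO 4, KO 5 and all WT libraries but WT 3; the range over the alternatives was 0.022 to 0.32. Kif4 had 4.53, 3.49, 6.96, 6.01, 4.59 and 5.84 CPM in WT, 8.78, 8.86, 5.84, 8.83, 8.49 and 10.4 in KO and 14.3, 12.6, 6.71, 7.62, 6.92 and 8.28 in KI. In KO 5 libraries and in KI 4 were above every WT library. The log2 fold change was 0.71 in KO (SE 0.20, edgeR adjusted p = 0.014) and 0.85 in KI (SE 0.20, edgeR adjusted p = 0.0036). Kif4 and Kifc1 have near-identical copies elsewhere in the genome, so their counts are uncertain.

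Kifc1, of the minus-end directed kinesin-14 group, focuses spindle poles and in spermatids has been tied to the acrosome and nucleus. It had 9.83, 10.04, 10.4, 12.5, 12.03 and 10.9 CPM in WT, 12.4, 14.3, 15.2, 11.1, 12.5 and 15.6 in KO and 17.2, 16.1, 15.8, 14.7, 14.8 and 14.8 in KI. KI lay above WT in all 6 libraries and KO in 4. The log2 fold change was 0.31 in KO (SE 0.11, edgeR adjusted p = 0.047) and 0.51 in KI (SE 0.11, edgeR adjusted p = 0.0014), and with close libraries summed the adjusted p in KO was 0.20. Kifc2, Kifc3 and Kifc5b passed in neither comparison.

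Kif26a, an atypical kinesin that binds microtubules without walking, was the rarest of the members called, with 9 to 50 counts in a library. It had 0.823, 0.924, 0.478, 0.630, 0.663 and 0.460 CPM in WT, 0.818, 1.79, 1.33, 1.84, 1.60 and 0.823 in KO and 1.501, 1.24, 0.821, 1.14, 0.421 and 0.979 in KI. In each of KO and KI, 4 libraries were above WT. The log2 fold change was 1.04 in KO (SE 0.29, edgeR adjusted p = 0.012) and 0.61 in KI (SE 0.30, edgeR adjusted p = 0.14).

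**Figure D5:**
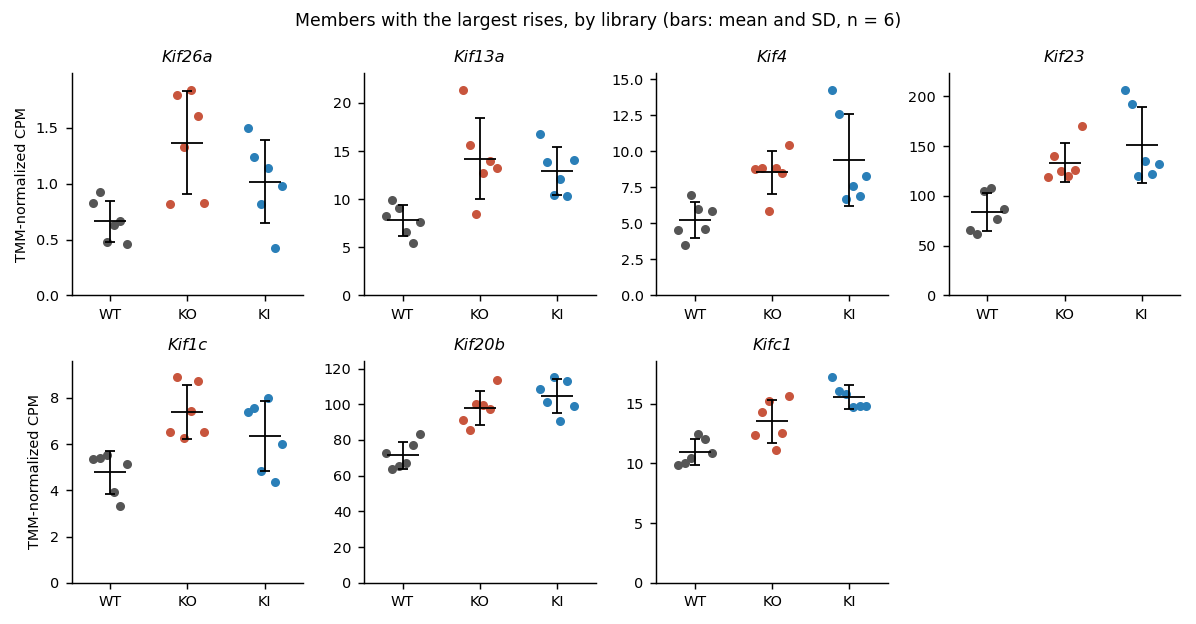
Levels in CPM of the 7 members with the largest rises, with 6 libraries per genotype as points and the mean and SD as bars. Kif23 and Kif20b show no overlap of KO or KI with WT, and Kif26a overlaps in both.

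Some markers of other cells also rose, others fell and others did not pass. Of 7 genes of dividing cells, 3 were higher and 1 lower in KO and 3 were higher in KI, and their summed level was 624 to 1081 CPM in WT, 735 to 1040 in KO and 728 to 1201 in KI. Of 8 spermatocyte genes, 3 were higher and 1 lower in KO and 2 higher and 1 lower in KI (summed level 965 to 1291 CPM in WT, 1058 to 1388 in KO and 1070 to 1390 in KI). Of 7 spermatogonium genes, 3 were higher in KO and 2 in KI (48.7 to 61.0 CPM in WT, 57.6 to 89.0 in KO and 54.0 to 94.0 in KI). All 5 Leydig cell genes were higher in both (9.68 to 19.7 CPM in WT, 29.6 to 51.0 in KO and 13.2 to 65.7 in KI). Of 5 macrophage genes, 2 were higher in each, with sums of at most 14.1 CPM. The Sertoli gene Wt1 and the peritubular gene Myh11 were lower in both. The peritubular gene Acta2 was higher in KO and the red blood cell gene Hbb-bs in KI. Genes of Sertoli, endothelial, peritubular and red blood cells summed to under 10 CPM in every library. No list had all its genes at 0. Spindle genes whose symbols lay outside the rule for members were also listed. Of these, Prc1, which Kif4 binds at the central spindle, rose by 0.46 on the log2 scale in KO (SE 0.14, edgeR adjusted p = 0.021) and by 0.56 in KI (SE 0.14, edgeR adjusted p = 0.0049). Cenpe and Racgap1 passed in neither. The part of other cells in the members' rises was not tested.

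A second motif was searched for in the same promoters. The cell cycle homology region (CHR), TTTGAA, marks promoters of genes used in mitosis. Searched on both strands, as TTTGAA or TTCAAA, it occurred in 17.9% of all promoters and in 14 of the 38 promoters of members, each of a different member. These include 4 of the 7 matched members that rose in both comparisons (Kif20b, Kif23, Kif4 and Kifc1) and 2 of the 5 that fell in both (Kif1a, at its other start, and Kif2c), and 7 of the 19 that passed in neither or were not tested. The promoters of Kif23, which rose, and Kif2c, which fell, are shown with the CHR in capitals, at chr9:61946750-61947049 and at chr4:117178723-117179022, both on the minus strand. The Kif2c window lies inside the annotated gene, away from its outermost start.
Kif23: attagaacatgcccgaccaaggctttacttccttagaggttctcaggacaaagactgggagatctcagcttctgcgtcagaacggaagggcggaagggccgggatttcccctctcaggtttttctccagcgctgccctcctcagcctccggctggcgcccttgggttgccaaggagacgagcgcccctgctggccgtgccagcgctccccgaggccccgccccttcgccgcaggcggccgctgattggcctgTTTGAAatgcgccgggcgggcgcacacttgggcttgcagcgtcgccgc
Kif2c: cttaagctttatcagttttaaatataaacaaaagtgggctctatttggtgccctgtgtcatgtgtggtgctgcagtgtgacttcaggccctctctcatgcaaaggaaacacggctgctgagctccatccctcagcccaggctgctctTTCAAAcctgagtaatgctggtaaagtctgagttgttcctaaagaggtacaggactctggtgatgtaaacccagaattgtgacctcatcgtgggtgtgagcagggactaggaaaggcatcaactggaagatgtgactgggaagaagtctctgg
The letters were thus present in members of both directions and in members that did not pass, and no binding was measured.

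The motors of the axoneme and several of the most abundant members did not pass in either comparison. Kif9 had 530 to 751 CPM in WT, 505 to 584 in KO and 496 to 678 in KI, with log2 fold changes of -0.22 and -0.13, and Kif6 had 0.06 and 0.05. For Kif2b and Kif27 the spread between libraries of 1 genotype was large. Kif2b had 303 to 786 CPM in WT, 132 to 833 in KO and 268 to 457 in KI (SE of the log2 fold change 0.32 in KO). Kif27, which is needed for motile cilia, had 221 to 476, 118 to 621 and 158 to 282. Both were highest in WT 1, WT 2 and KO 1 and lowest in KO 3, as was Kif17 within KO. The 26 members that did not pass in KO had log2 fold changes between -0.43 and 0.36 and the 27 in KI between -0.55 and 0.61, with standard errors up to 0.35.

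The comparison of KI with KO asks whether loss of the phosphorylated form differs from loss of the whole protein. No member passed edgeR's quasi-likelihood test, beside 0.0997% of all genes, and 1 member, Kif5c, had an unadjusted p under 0.05. DESeq2 called none either, nor did edgeR without the library labelled KI 4, whose Ddx25 level lay within the KO range. The log2 differences of the 42 members lay between -0.48 (Kif17) and 0.23 (Kifc5b), with standard errors of up to 0.36, and their median was 0.02, beside -0.02 over all genes. KO and KI were compared with the same WT libraries above, so their values against WT are not independent of each other.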

How the data were processed

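Per the methods and labels, total RNA of isolated RS was sequenced with no polyA selection and with strand kept. The authors used cutadapt 3.4 for trimming and STAR 2.7.8a for alignment to GRCm38, and deposited raw counts per gene of GENCODE M18, made by strand with featureCounts (Subread 2.0.1). The counts were used unchanged, and 0 columns had no library. Symbols came from GENCODE M21 on the same build, for 54079 of 54232 identifiers.

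In R 4.3.3, edgeR 4.0.16 (with limma 3.58.1) filtered genes with filterByExpr, scaled by TMM and fitted 1 quasi-likelihood model of genotype to all 18 libraries. Any change was tested with glmQLFTest and changes past 1 log2 unit with glmTreat, adjusted by Benjamini-Hochberg over 21058 genes, threshold 0.1. Scripts were tested on simulated counts. TPM used the table's exon lengths. Closeness of libraries was the variance of their difference relative to counting noise. Alternatives included DESeq2 1.42.0. Figures used Python 3.11.15 and matplotlib 3.10.9.

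The members, roles, partners and markers were chosen with earlier results of these data known. Named with values in every library were Kif17, members past 1 log2 unit, and the 5 largest rises and falls called in each comparison. By level alone, the 8 highest in WT and those at or under 3 counts in every library were named.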

Additional observations from a re-analysis of the deposited data

Results flagged for a closer look

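Outlying libraries were looked for in 19 named members, which gave 57 groups of 6 libraries, of which chance would mark about 1 in 20. In 1 group a library stood apart from the rest by Dixon's criterion: Kif27 had 621 CPM in KO 1, while the other 5 KO libraries had 118 to 288 CPM, and the gap was 0.663 of the whole range.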

How the results depend on the processing

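Of the 26 log2 fold changes of named members, 21 kept their direction and side of the threshold under all alternatives tried, none reversed, and 25 values in all lost a call, those of Kif1bp, Kif1c in KI and Kifc1 in KO. Over the alternatives the adjusted p of Kif1bp was 0.022 to 0.17 in KO and 0.022 to 0.24 in KI, that of Kif1c in KI 0.033 to 0.20, that of Kifc1 in KO 0.026 to 0.24 and that of Kif26a in KI 0.048 to 0.32. For Kif26a in KI, 1 value gained a call (without KI 5, 0.76, edgeR adjusted p = 0.048). At least 10 counts in every library left Kif26a untested. The number of members higher in KO was 6 with no filter on low counts and 6 with close libraries summed, against 10, and the number higher in KI was 5 with close libraries summed, against 9. Members past 1 log2 unit in KI, 1 by the main test, were 3 in a model of only the genotypes compared and 3 with the interval null of glmTreat, which added Kif17 and Kif16bos. Leaving out each of the 18 libraries gave 8 to 11 members higher and 5 to 6 lower in KO, 8 to 10 higher and 5 to 7 lower in KI, and between 1 and 3 past 1 log2 unit in KI (3 without KO 3, 2 without KO 1 or WT 6). Same-numbered libraries had correlations of -0.501 to 0.538. Other pairs were not set beside them, so whether the replicate numbers pair the libraries was not decided. With the replicate block the counts were 10 higher and 6 lower in KO and 9 and 6 in KI, with Kif3b in place of Kif21a and Kif1c. Low counts limited Kif26a, Kif26b, Kif3c, Kif28 and Kif12. The shares of all genes called under these alternatives were not computed, and the cause of these shifts was not tested.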

Other observations

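Kif17, Kif2b and Kif27 varied together between libraries of 1 genotype, so the ratio of Kif17 to each of the others within a library was also computed, after the values had been seen and with no test. The ratio of Kif17 to Kif2b in CPM was 0.640 to 1.03 in WT, 0.214 to 0.396 in KO and 0.212 to 0.299 in KI. The ratio of Kif17 to Kif27 was 1.03 to 1.44 in WT, 0.266 to 0.532 in KO and 0.371 to 0.489 in KI. Neither ratio overlapped between WT and KO or KI, and KO 1, whose Kif17 level of 330 CPM lay inside the WT range, had ratios of 0.396 and 0.532, the highest of the KO libraries and below all WT libraries. The library labelled KI 4 had 0.212 and 0.371, close to those of KO 2 (0.214 and 0.371).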
